A study of Mus musculus with 4 samples.

Results

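The genes described here are 33 listed genes of the lysosome, covering cathepsins and other lysosomal proteases, glycosidases, lipid hydrolases and transporters, and membrane proteins, without subunits of the proton pump. Every probe set whose array annotation names a single gene, and that gene one of the list, was taken. This gave 70 probe sets for 32 of the 33 genes, out of 18193 genes that such probe sets name in all. Cd63 was not reached by the rule and was not analysed here. The cells were mouse macrophages grown from bone marrow for 7 days with 20% L-cell conditioned medium, which supplies M-CSF, and then kept overnight without that supplement. Both groups were primed with interferon-gamma (100 U/ml) overnight and washed. The labels put this at 16 h for the LPS arrays and give no hours for the LPS_IC arrays, whose titles do not name interferon-gamma, so an equal priming time is not shown. The LPS group (2 arrays) was then given lipopolysaccharide (LPS, a bacterial cell wall component sensed by TLR4) at 10 ng/ml for 2 h, which the series calls classical activation. The LPS_IC group (2 arrays) was given LPS at that dose plus immune complexes, antigen bound by antibody that engages Fc gamma receptors, for 2 h, which the series calls type II activation. The labels give no genotype or age of the mice and no untreated cells were among these samples. Nothing in them says whether replicates 1 and 2 were separate cultures or animals. The p-values then measure only how far these arrays spread, and that spread may be technical.

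Lysosomes are acidic organelles in which macrophages digest what they take up, immune complexes included. The soluble hydrolases are made in the endoplasmic reticulum as precursors, tagged with mannose 6-phosphate, carried to late endosomes by receptors and activated there by proteolysis. Heavily glycosylated membrane proteins line the organelle, and transporters and channels in its membrane export the products of digestion and release ions. Many of these genes carry a short motif, called CLEAR, to which the transcription factor TFEB and its relatives bind.

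Macrophage markers read above the median signal of all probe sets, 68.4 to 155.8, on every array. They were not equally bright, with readings from 729.7 for Itgam to 46505.3 for Cd14. The summed signal of the 10 macrophage markers ran from 171816.4 to 212658.4 on the LPS arrays and from 149922.9 to 171928.6 on the LPS_IC arrays. For 3 of the 10, Lyz2, Cd14 and Aif1, both LPS_IC arrays read below both LPS arrays, and for 0 both read above. Over all tested genes these shares were 13.1% and 13.2%. The 3 lie among the 343 tested genes at least as bright as the median lysosomal gene. Of those 343, 39.4% read lower on both LPS_IC arrays and 5.54% higher. Cd3d, Cd3e and Cd3g, which encode CD3 subunits of the T cell receptor complex, read at most 94.2 on any array. Some other lymphocyte markers were brighter. The B cell marker Ighm ranged from 2540.9 to 5419.4 with overlapping groups, while the other B cell markers read at most 284.6. The T cell marker Il7r reached 3584. Whether lymphocytes were present was not tested. The first LPS_IC array stood apart from the other 3, with a 5th percentile of signal of 28.1 against 3.3 to 7.9, and its highest signal was 38166.6 against 42477.9 to 53583 on the others. Low signals on that array were therefore raised and high signals reduced relative to the rest. High signals were reduced on the second LPS_IC array too. The median log2 signal of the 343 bright genes was 13.99 and 14.18 on the LPS_IC arrays against 14.20 and 14.27 on the LPS arrays. Their median log2 fold change was -0.20, and still -0.10 without the first LPS_IC array. Log2 differences over 1 in size are also given without that array. In RNA from whole cultures, fewer cells of a type and less RNA per cell cannot be told apart.

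The comparison asks how lysosomal transcripts differ when immune complexes are added to LPS. At 2 h, Cln8 stood out: it read 4.34-fold higher with immune complexes, and all 4 of its probe sets were higher on both LPS_IC arrays than on both LPS arrays. For the other 31 tested genes the log2 fold change lay between -0.69 and 0.66. None of the 32 genes passed limma's test at an adjusted p under 0.05 in either direction, where 0.0621% of 12891 tested genes passed on the higher side and 0% on the lower. At an unadjusted limma p under 0.05 there was 1 gene of 32 on the higher side, Cln8, where 1.99% of all tested genes lay, and 0 on the lower, where 1.14% lay. Fold changes here are differences of mean log2(signal + 32), given with limma's standard error (SE), and each gene stands by its brightest tested probe set.

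Cln8 encodes a membrane protein of the endoplasmic reticulum and the compartment between it and the Golgi that helps newly made lysosomal enzymes leave the endoplasmic reticulum, and its loss causes a neuronal ceroid lipofuscinosis. The brightest Cln8 probe set gave readings (replicate 1, then replicate 2) of 1331.7 and 947.3 for LPS and of 6142.3 and 4035.9 for LPS_IC. The groups did not overlap, and the lower LPS_IC reading was well above the higher LPS reading. Its log2 fold change was 2.12 ± 0.36 (SE), with a 95% interval of 1.32 to 2.91 and a limma adjusted p of 0.09. Among the 12891 tested genes this was rank 29 by log2 fold change and rank 16 by p.

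The other Cln8 probe sets gave the same order of arrays between groups. The next in brightness, 1448455_at, read 668.6 and 649.5 with LPS alone and 2900.2 and 2711.4 with LPS_IC, with replicates closer to each other than in the brightest one. The third, 1448456_at, read 380.2 and 289.6 against 2104.2 and 1851, which is 2.46 ± 0.39 on the log2 scale (limma adjusted p = 0.0582). The dimmest, 1455745_at, read 100.7 and 214.3 against 405.4 and 615.3, a log2 fold change of 1.56 ± 0.48. Without the first LPS_IC array the log2 fold changes of these 3 were 1.99, 2.37 and 1.84. These probe sets share their target gene and their RNA, so they repeat the measurement of these samples and add no samples. For comparison, the smallest log2 fold change of any of the 14 probe sets that passed the test was 2.40 in size.

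With the replicate number as a block, Cln8 had a limma adjusted p of 6.98e-17. That fit leaves fewer data to estimate the spread, so its p-values lean more on other probe sets. It also takes same-numbered arrays as paired, which the labels do not state. The Cln8 difference kept its sign under all alternatives tried, at 1.82 to 2.42, while its adjusted p depended strongly on the setting. Leaving out an LPS array brought it past the threshold, with limma adjusted p = 0.000159 without the first and 0.00516 without the second. Leaving out an LPS_IC array did not, with 1.82 and adjusted p = 1 without the first and 2.42 and adjusted p = 0.156 without the second. The summed signals of the T cell and neutrophil marker lists were also higher on the LPS_IC arrays, each mostly through 1 gene. Of 9 T cell markers 7 had a probe set, 3 of them bright enough to test, and the sum over the 7 was 1134.5 to 2593.2 with LPS and 3536 to 3825.7 with immune complexes. Most of it was Il7r, at 1000.9 and 2370.2 against 2744.1 and 3584. Of 10 neutrophil markers 9 had a probe set and 5 were tested, and the sum over the 9 was 1085.7 to 1154.3 against 1675.9 to 1776.4. Most of that difference was S100a8, at 540.8 and 504.7 against 871.3 and 1137.6. The granule gene Mpo went the other way, at 95.2 and 108.2 against 65.7 and 79.9. Elane, another granule gene, was dim but higher with immune complexes, at 16.3 and 19.9 against 127.7 and 85.2. The groups were apart for 2 neutrophil markers on the higher side and 1 on the lower, and the other 6 overlapped. Of the 7 T cell markers, 3 were apart on the higher side and 0 on the lower. Besides Il7r these were dim: Cd8a at 23.6 and 41.6 against 255.1 and 89.6, and Cd4 at 17.5 and 14.1 against 95.4 and 18.9. Both read highest on the first LPS_IC array, where low signals were raised. Over all tested genes 13.2% were apart on the higher side and 13.1% on the lower. Those shares leave out genes too dim to test, as were 4 of the 7 T cell and 4 of the 9 neutrophil markers. No marker was at 0. The part of these cells in the Cln8 result was not tested.

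**Figure D1:**
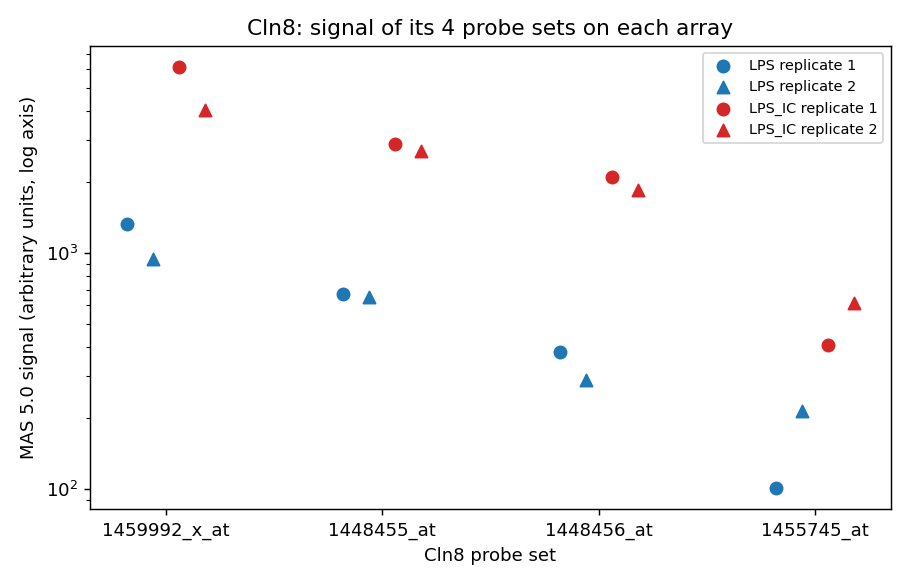
Signal of the 4 Cln8 probe sets (log axis, arbitrary MAS 5.0 units) on the 2 LPS arrays (blue) and the 2 LPS_IC arrays (red), with circles for replicate 1 and triangles for replicate 2. On every probe set both red points lie above both blue points, from 405.4 and 615.3 against 100.7 and 214.3 on the dimmest to 6142.3 and 4035.9 against 1331.7 and 947.3 on the brightest.

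Across the 32 genes the differences were small and followed the brightness of the probe sets. The median log2 fold change was -0.16, against 0.05 over all tested genes, and 23 of the 32 lay below 0. Among the 343 tested genes at least as bright as the median lysosomal gene, the median was -0.20 and 85.7% lay below 0, and for the 16 lysosomal genes in that range the median was -0.19. The 16 dimmer ones had a median of -0.02. The sign of the list's median depended on the scaling and on single arrays: it was 0.03 with quantile normalization (all genes -0.02), -0.36 with median centring (all genes -0.15), 0.07 without the first LPS_IC array and 0.14 without the second LPS array. No direction can therefore be given for the list as a whole.

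**Figure D2:**
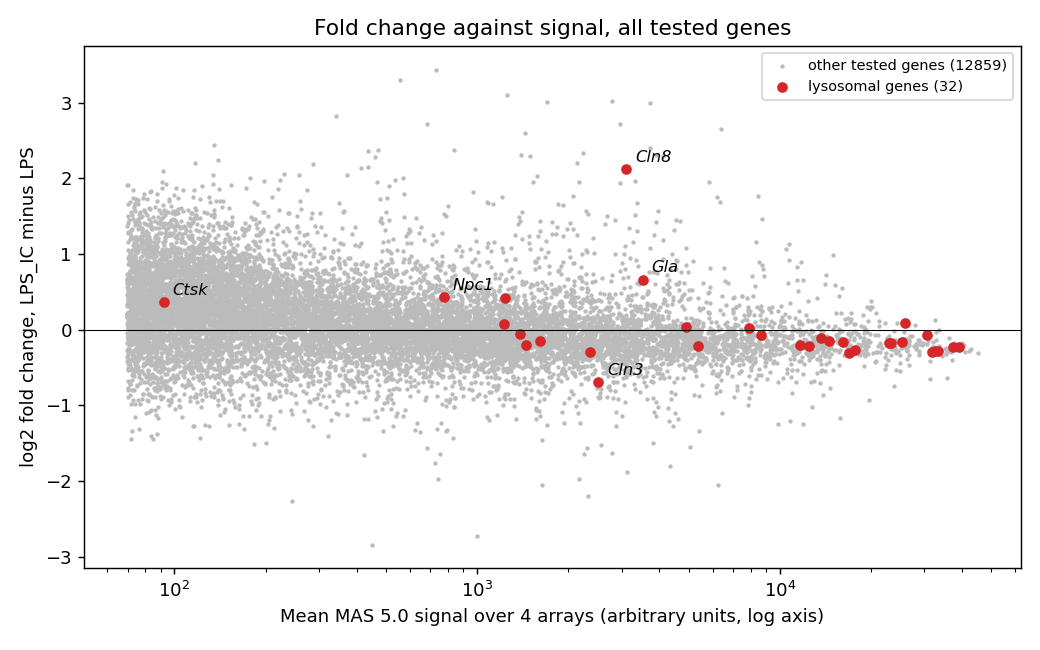
Log2 fold change (LPS_IC minus LPS) against the mean signal over the 4 arrays (log axis, arbitrary MAS 5.0 units) for the 32 lysosomal genes (red) and the other tested genes (grey). Cln8 lies at 2.12, apart from the other red points, and the brightest genes of both kinds lie slightly below 0.

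Both LPS_IC arrays read above both LPS arrays for 4 of the 32 genes, namely Cln8, Gla, Npc1 and Neu1, or 12.5% where all tested genes gave 13.2%. Both read below for 5, namely Ctsc, Ctsh, Ctss, Ctsz and Npc2, or 15.6% where all tested genes gave 13.1%. Both shares were near the background, so these counts are not a result about lysosomal genes. The 5 lower genes were all among the 16 at or above the list's median signal. They were 31.2% of those 16, against 39.4% of the 343 tested genes of that brightness. The 4 higher genes were all among the 16 dimmer ones, or 25% of them, against 13.4% of tested genes below that signal. On the brightest probe set, the 95% interval lay wholly within a 2-fold change in either direction (log2 values of -1 to 1) for 23 of the 32 genes. It did so for 20.3% of all tested genes. All 16 genes at or above the list's median signal were among the 23, and 88.9% of the 343 tested genes of that brightness had such intervals. Dimmer probe sets of the same genes were not all bounded in this way. The dimmest of Ctsc had an interval of -2.46 to -0.84, and the dimmest of Ctsb one of 0.61 to 2.59.

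**Figure D3:**
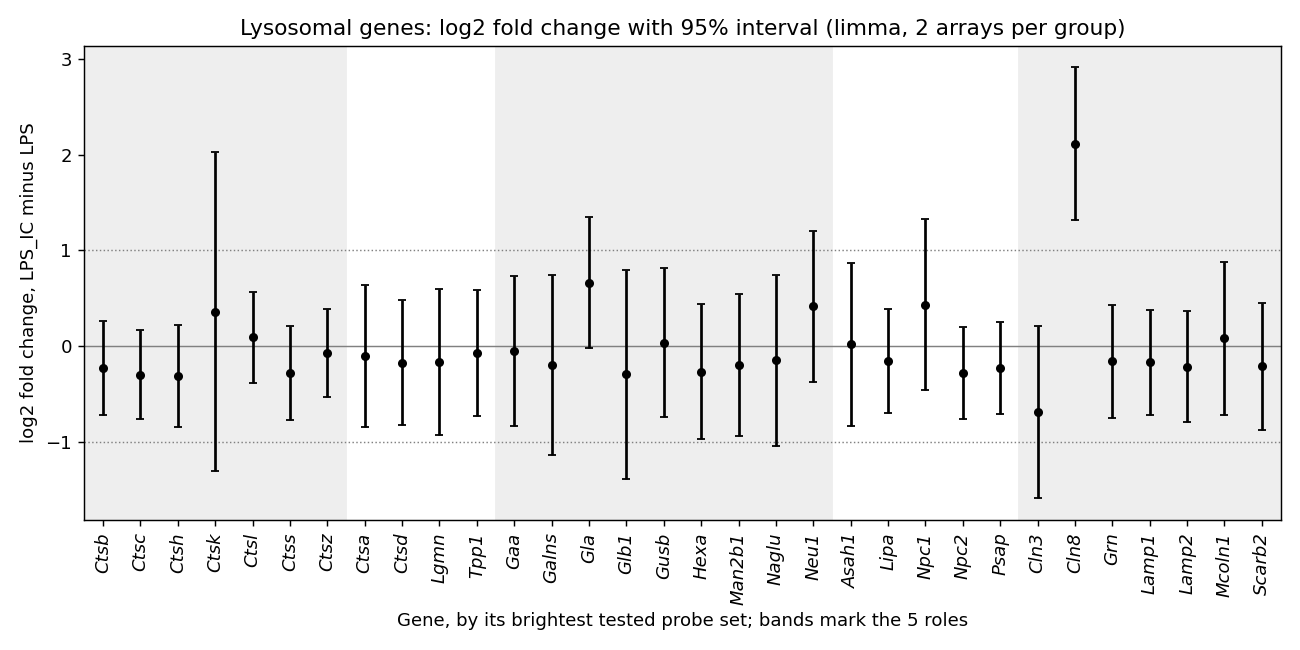
Log2 fold change (LPS_IC minus LPS, points) with its 95% interval from limma (bars, 2 arrays per group) for the 32 lysosomal genes by their brightest probe set, with shaded bands for their 5 roles and dotted lines at -1 and 1. The interval of Cln8, 1.32 to 2.91, is the only one that leaves out 0.

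The papain-type cysteine cathepsins cut proteins inside the lysosome and trim antigens and the invariant chain of MHC class II. None of the 7 passed the test, and their median log2 fold change was -0.23. Ctsb, cathepsin B, an endopeptidase that also removes dipeptides, read 34871.9 and 46223.3 with LPS alone and 31327.3 and 37363.9 with LPS_IC. Ctsl, cathepsin L, an endopeptidase, read 24238.9 and 26128 against 26110.2 and 27479.6. The Ctsb and Ctsl readings of the groups overlapped, at log2 fold changes of -0.23 ± 0.23 and 0.09 ± 0.22. Ctss, cathepsin S, which completes invariant chain removal in antigen-presenting cells, read 31351.5 and 40180.4 against 27445.4 and 31061.2, so that the groups lay apart by a small margin. Ctsh, cathepsin H, an aminopeptidase, read 20534.2 and 17068.1 against 15686.6 and 14514.2, a log2 fold change of -0.31 ± 0.24 with a 95% interval of -0.84 to 0.22. Ctsz, cathepsin Z, a carboxypeptidase, read 31981.8 and 30748.4 against 29173.6 and 30509. Its groups lay apart by less than the replicates of the LPS_IC group differed from each other. Dimmer Ctsz probe sets had -0.16, with groups apart, and 0.04, with overlap. Ctsk, cathepsin K, the collagenase of osteoclasts, read 44.5 and 112.5 against 132.8 and 78.5, close to the filter signal of 69.6, and its interval of -1.31 to 2.03 bounds little.

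Ctsc, cathepsin C or dipeptidyl peptidase I, which activates granule serine proteases, was lower on its 3 probe sets, by unequal amounts. The brightest read 33459.3 and 36772.3 with LPS alone and 27188.3 and 29837.4 with LPS_IC, giving a log2 fold change of -0.30 ± 0.21. A dimmer one, 1437939_s_at, read 7423.3 and 8740.4 against 2886.2 and 4395.6, at -1.17 ± 0.32 on the log2 scale (limma adjusted p = 0.542). The dimmest, 1446834_at, read 2771.8 and 3387.3 against 771.8 and 1178.2, at -1.65 ± 0.37 (limma adjusted p = 0.242). Without the first LPS_IC array the dimmer pair had -0.87 and -1.36. The groups were apart on all 3 and none passed over all probe sets. Without a filter on signal the dimmest did pass, with limma adjusted p = 0.0389, and over all alternatives its adjusted p ran from 1.16e-08 to 1. The brightest lies near the top of the array's range, where the highest signals of the 4 arrays were 38166.6 to 53583. Whether the brightest probe set was limited by that range was not tested.

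Ctsb has 5 tested probe sets, and these disagreed in sign. The brightest pair had log2 fold changes of -0.23 and -0.19, and the next pair 0.19 and 0.21. The dimmest, 1444987_at, read 470.3 and 445.4 with LPS alone and 2227.4 and 937.3 with LPS_IC, at 1.60 ± 0.45 on the log2 scale (limma adjusted p = 0.639). Man2b1, which encodes lysosomal alpha-mannosidase, and Mcoln1, which encodes the calcium channel TRPML1, each had a dim probe set of the same kind. The dim Man2b1 probe set read 41.3 and 28.7 against 207.6 and 104.1, and the dim Mcoln1 one 38.5 and 14.3 against 333.5 and 97.7. The log2 fold changes of these were 1.44 and 1.93. On all 3 dim probe sets the first LPS_IC array read highest and the second still read above both LPS arrays. Without the first, the values were 0.99 for Ctsb, 1.03 for Man2b1 and 1.18 for Mcoln1. The brightest Man2b1 and Mcoln1 probe sets had log2 fold changes of -0.20 ± 0.34 and 0.08 ± 0.37. The middle Mcoln1 probe set had -0.26 ± 0.45.

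**Figure D4:**
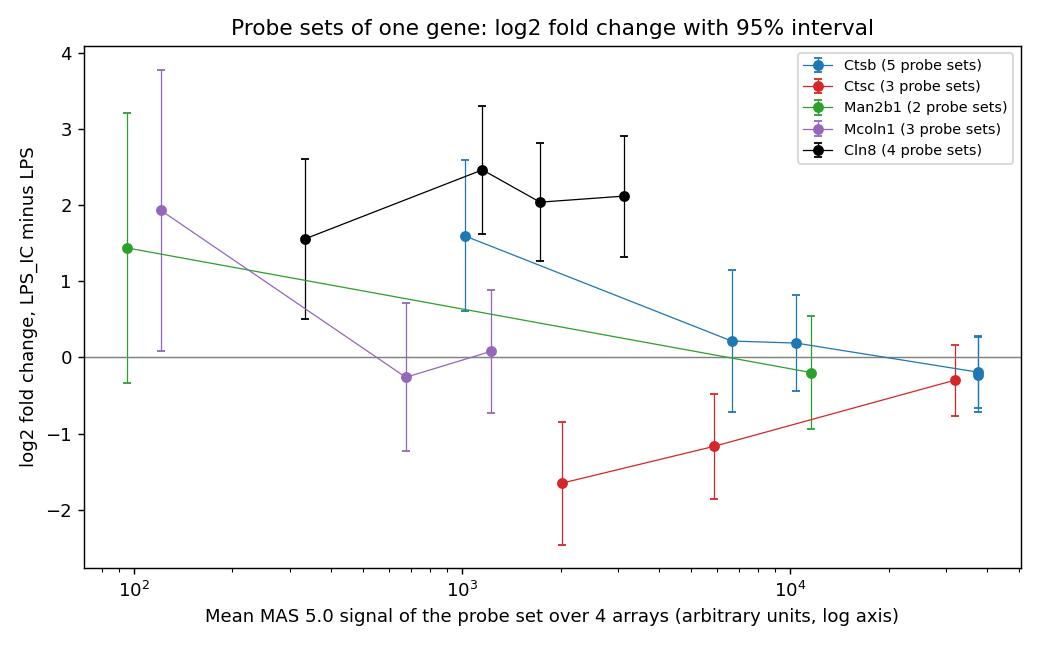
Log2 fold change (LPS_IC minus LPS) with its 95% interval from limma for each tested probe set of Ctsb, Ctsc, Man2b1, Mcoln1 and Cln8, against the probe set's mean signal over the 4 arrays (log axis, arbitrary MAS 5.0 units). The 4 Cln8 probe sets lie between 1.56 and 2.46, while those of Ctsb spread from -0.23 to 1.60 and those of Ctsc from -1.65 to -0.30.

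The other proteases differed more between replicates than between stimulations. Ctsd, the aspartic protease cathepsin D, read 18538.4 and 30867.2 with LPS alone and 17074.3 and 26352.6 with LPS_IC. Lgmn, the asparaginyl endopeptidase that processes other cathepsins, read 11768.6 and 22684.4 against 10935.5 and 19387.3. Ctsa, cathepsin A, a carboxypeptidase that also protects beta-galactosidase and neuraminidase from degradation, read 10056.8 and 18557.9 against 9917.2 and 16289.2. In each of these the arrays labelled replicate 2 were high in both groups and the groups overlapped. Tpp1, tripeptidyl peptidase, which removes tripeptides from protein ends, read 7977 and 9616.1 against 6630.9 and 10430.4. The log2 fold changes of the 4 genes were -0.17 to -0.07.

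This order by replicate number was common among lysosomal genes. For 18 of the 32, or 56.2%, both arrays of replicate 2 read above both arrays of replicate 1, against 24.8% of all tested genes, and for 1, Asah1, both read below, or 3.12% against 26.9%. Among the 343 bright genes 37.6% had the replicate 2 arrays on top, and 11 of the 16 bright lysosomal genes did. These counts carry no test, and the labels do not say what the arrays of one number share. They were made after the values had been seen.

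**Figure D5:**
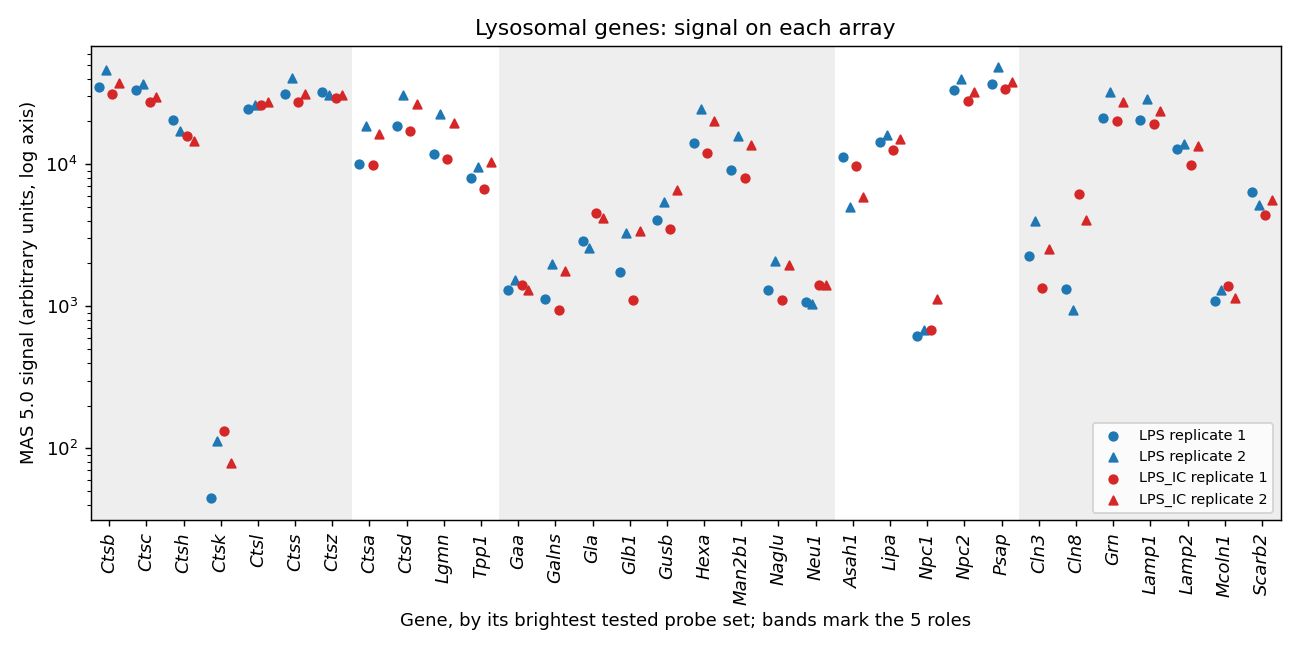
Signal of the 32 lysosomal genes (log axis, arbitrary MAS 5.0 units) on the LPS arrays (blue) and the LPS_IC arrays (red), with circles for replicate 1 and triangles for replicate 2, ordered by role. For Ctsd, Lgmn and Ctsa both triangles lie above both circles, for Asah1 both lie below, and for Cln8 the colours separate instead.

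Glycosidases remove sugars from glycoproteins, glycolipids and glycosaminoglycans. None of the 8 glycosidase genes nor the sulfatase gene Galns passed, and 6 of the 9 lay below 0. Gla, alpha-galactosidase A, the enzyme lacking in Fabry disease, read 2891.7 and 2555.4 with LPS alone and 4497.9 and 4149.8 with LPS_IC. The groups did not overlap and the replicates lay close together. Its log2 fold change was 0.66 ± 0.31, with a 95% interval of -0.02 to 1.35 and a limma adjusted p of 1. A dimmer Gla probe set, 1449006_at, read 558.1 and 830.1 against 1142.4 and 1697, at 0.9985 ± 0.40 on the log2 scale. A Gla probe set below the filter on signal read 49.1 and 66.6 against 113.4 and 33.2, with overlap.

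Neu1, the neuraminidase that removes sialic acid, read 1069.3 and 1042.2 with LPS alone and 1418.1 and 1417.7 with LPS_IC, giving a log2 fold change of 0.41 ± 0.36. The groups were apart, but limma's spread, which borrows from other probe sets of like signal, left a 95% interval of -0.37 to 1.20. Its dimmer probe sets had 0.88 ± 0.61 and 0.87 ± 0.98. Hexa, the alpha subunit of hexosaminidase A, read 14131.4 and 24580.4 against 12008.1 and 19981.1, and Man2b1 read 9136.8 and 15740.6 against 7964 and 13675. Glb1, the beta-galactosidase, read 1734.9 and 3254.2 against 1106.2 and 3356.6, at -0.30 ± 0.50. For these 3 genes the replicates of a group differed by more than the group means. Gusb, the beta-glucuronidase, had 0.04 ± 0.36, Gaa, the acid alpha-glucosidase that breaks down glycogen, had -0.05 ± 0.36, and Naglu, which acts on heparan sulfate, had -0.15 ± 0.41. Galns, which removes sulfate from keratan sulfate, had -0.20 ± 0.43.

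The lipid group holds enzymes and carriers that take apart sphingolipids and cholesterol esters. None of its 5 genes passed. Psap, the precursor of the saposins that present sphingolipids to hydrolases, read 36720.7 and 47896.4 with LPS alone and 33783.4 and 37906.1 with LPS_IC, with overlapping groups and a log2 fold change of -0.23 ± 0.22. Npc2, the soluble carrier that hands cholesterol to NPC1, read 33195.1 and 39995.6 against 27811.4 and 32296.5, at -0.28 ± 0.22. Its dimmer probe sets, on all of which the groups overlapped, had -0.22, 0.0064 and 0.001. Npc1, the membrane protein that passes cholesterol out of the lysosome, read higher with LPS_IC, at 613.7 and 677 against 685.5 and 1131.9. The first LPS_IC reading of Npc1 was barely above the higher LPS reading, and the second made most of the difference of 0.43 ± 0.41. Lipa, lysosomal acid lipase, which hydrolyses cholesterol esters, had -0.15 ± 0.25. Asah1, acid ceramidase, read 11138 and 4991.8 against 9693.2 and 5887.3, high on the replicate 1 arrays of both groups, with a log2 fold change of 0.02 ± 0.39.

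Among the membrane proteins other than Cln8, none passed. Lamp1 and Lamp2, the abundant glycoproteins of the lysosomal membrane, had log2 fold changes of -0.17 ± 0.25 and -0.21 ± 0.27. The 4 Lamp2 probe sets lay on both sides of 0, from -0.31 to 0.18. Scarb2, also called LIMP-2, the carrier that brings glucocerebrosidase to lysosomes, had -0.21 ± 0.30. Cln3, a multipass membrane protein mutated in juvenile neuronal ceroid lipofuscinosis, read 2258.8 and 3948.2 with LPS alone and 1334.5 and 2520.4 with LPS_IC. Its groups overlapped, at -0.69 ± 0.41 with a 95% interval of -1.59 to 0.21. On its dimmer probe set, 656.9 and 825.8 against 466.8 and 479.9, they did not overlap, at -0.61 ± 0.40. The difference of Cln3 was thus opposite in sign to that of Cln8, and neither passed. Grn, progranulin, a secreted protein that is also delivered to lysosomes and cut into granulins, had -0.16 ± 0.27, and its other probe sets -0.22 and -0.21.

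Of the 67 tested probe sets of these genes, 7 had an unadjusted limma p under 0.05 on the higher side and 2 on the lower, where all 27022 tested probe sets gave 1.86% and 0.947%. Probe sets of 1 gene repeat one another: the higher ones were the 4 of Cln8 and 1 each of Ctsb, Gla and Mcoln1, and the lower ones were the dimmer pair of Ctsc. The other 3 of the 70 probe sets, 1 each of Ctsl, Gla and Galns, were below the filter, with no reading above 113.4.

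The promoters of these genes were searched for the letters of the CLEAR motif. Many lysosomal genes are already known to carry it, so a share above that of all genes adds no independent support. Promoters of 26 of the 32 genes were found in RefSeq's annotation of GRCm38.p6, as windows from 250 bases before to 50 bases after each gene's start. Those of Asah1, Cln8, Ctsb, Ctsh, Galns and Npc1 were not matched. The letters CACGTG, the core of the CLEAR motif, were in a window of 11 of the 26, or 42.3%, against 8.09% of 27025 genes. The longer TCACGTGA was in 5, or 19.2% against 1.12%, and the CLEAR consensus of 10 letters, which is TCACGTGA with a G before and a C after it, in 1, Cln3, against 0.37% of genes. All 3 motifs read the same on both strands. A match in letters does not show that a factor binds there. The 30 bases around TCACGTGA (in capitals) are shown where it lies before the start and the stretch is complete, since these genes lay on both sides of 0 in the comparison. All are from GRCm38.p6, read 5′ to 3′ on the gene's strand.
Gla, chrX:134601215-134601244, minus strand: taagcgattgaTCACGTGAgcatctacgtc
Gla, chrX:134601182-134601211, minus strand: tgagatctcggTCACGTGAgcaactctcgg
Cln3, chr7:126583340-126583369, minus strand: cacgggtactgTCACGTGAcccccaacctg
Ctsd, chr7:142387908-142387937, minus strand: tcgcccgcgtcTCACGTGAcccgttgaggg
Mcoln1, chr8:3500462-3500491, plus strand: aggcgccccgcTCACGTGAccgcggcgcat
The motif starts 228 and 195 bases before the start of Gla, 122 before that of Cln3, 99 before that of Ctsd and 46 before that of Mcoln1. Ctsa is the other gene with the 8-letter match. The genes with this motif had log2 fold changes of 0.66 for Gla, 0.08 for Mcoln1, -0.10 for Ctsa, -0.17 for Ctsd and -0.69 for Cln3. Over the 11 genes with CACGTG the median was -0.15, and over the 15 without it -0.20.

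Further lysosomal genes outside the 33 were also counted. Of 58 listed names 50 had a probe set and 48 were tested, none passed in either direction, and at an unadjusted limma p under 0.05 there were 2 higher and 0 lower, where all tested genes gave 1.99% and 1.14%. Their median log2 fold change was 0.02. Both LPS_IC arrays read above both LPS arrays for 9 of the 48, or 18.8% against 13.2% of all tested genes, and below for 3, or 6.25% against 13.1%. Ctns, the cystine exporter of the lysosomal membrane, read 169.7 and 135.6 with LPS alone and 578.8 and 301.7 with LPS_IC, giving a log2 fold change of 1.30 ± 0.48, or 0.86 without the first LPS_IC array. Gpnmb, a glycoprotein of endosomal and lysosomal membranes in macrophages, read 7569.2 and 9297 against 12166 and 13642.8, at 0.62 ± 0.27. Acp5, tartrate-resistant acid phosphatase, had 0.79 ± 0.40, and Slc29a3, a nucleoside transporter of the lysosomal membrane, 0.69 ± 0.40. The limma adjusted p of these 4 genes was 1, and their groups did not overlap.

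None of the 10 genes for sorting of lysosomal enzymes passed, with a median of -0.28. The mannose 6-phosphate receptors M6pr and Igf2r had -0.03 ± 0.26 and -0.01 ± 0.36. Sorl1, a sorting receptor of the Golgi and endosomes, read 1180 and 611.6 against 585.9 and 319.8, and Gga2, an adaptor for mannose 6-phosphate receptors, 497.5 and 868.1 against 1217.7 and 1099.9. Sorl1 and Gga2 had the only groups that did not overlap, on opposite sides. That is 10% of the list on each side, where all tested genes gave 13.2% higher and 13.1% lower, so these counts are not a result about sorting genes. Among 10 listed inhibitors of cathepsins and other proteases 6 were tested and none passed. Cst3, cystatin C, a secreted inhibitor of cysteine cathepsins, read 31515.3 and 39555.2 against 27024.9 and 31063.7, at -0.28 ± 0.22. Cstb, cystatin B, its cytosolic relative, had 0.11 ± 0.23, and Serpinb6b, a serine protease inhibitor, had 0.47 ± 0.33.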

How the data were processed

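Total RNA of 4 macrophage samples was hybridised to a mouse Affymetrix array. The authors deposited intensities on a linear scale, 1 for each probe set and array, from MAS5 version 5.0, per the submitters' processing notes. Trimmed by 2% of probe sets at each end, the mean signal was 499.1 to 499.8 on each array, and this scaling was not changed. The value table holds no detection calls, and signals of different probe sets are not comparable as amounts. Titles of the samples gave the groups and replicate numbers.

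The analysis used log2(signal + 32), on which changes of dim probe sets are understated. A filter at the 40th percentile of mean signal kept 27022 of 45037 probe sets. Version 3.58.1 of limma (lmFit, eBayes) in R 4.3.3 compared LPS_IC with LPS, using a variance trend, no block, a two-sided moderated test and Benjamini-Hochberg adjustment over all tested probe sets. The brightest tested probe set, by mean signal, stands for a gene. The code was tested on simulated data.

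Genes were named by the platform annotation that GEO holds, in which 34945 probe sets name 1 gene. The genes, the lists and the tests were chosen with earlier results of these data known. Per-array values are given for genes whose groups do not overlap, the 6 with the highest mean signal, the 4 with the largest log2 fold change in each direction and genes whose probe sets differ in sign by over 0.5. From each further list up to 4 genes with the largest changes among those whose groups do not overlap are named. Other genes with values were chosen after their values were seen.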

Additional observations from a re-analysis of the deposited data

How the results depend on the processing

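With 2 arrays per group, MAS 5.0 signals without detection calls and raised low signals on 1 array, the smallest differences that passed were large, so a gene that did not pass may still differ. Where 1 array stood for a group, it was assumed to vary like those of the other group. The count of genes past the threshold on the higher side was 1, Cln8, without a filter, with the replicate number as a block, with the mean over probe sets, at adjusted p under 0.1 and without either LPS array (0 to 1 over the left-out arrays), and the count on the lower side was 0 throughout. Over all tested genes the calls numbered 37 higher and 12 lower without a filter, 21 and 4 with the mean over probe sets, 19 and 3 at adjusted p under 0.1, 40 and 13 without the first LPS array and 42 and 19 without the second. Cln8 had adjusted p = 0.00242 without a filter and 0.0199 with the mean over probe sets. With 4 arrays the replicate block left fewer data to estimate the spread of each probe set, so its p-values lean more on other probe sets. The replicate block gave Cln8 a limma adjusted p of 6.98e-17 and called 1 other lysosomal gene, Gpnmb (adjusted p = 0.0135). Over the whole array it called 224 genes higher and 167 lower. Both dimmer probe sets of Ctsc, the dimmest of Ctsb and 1 dimmer one of Gla also passed there, and the dimmest of Ctsc also passed without a filter. Deviations of same-numbered arrays from their group means correlated at 0.382 over tested probe sets and at 0.677 over the 32 lysosomal genes, but with 2 pairs and no statement in the labels the numbers were not taken to pair the samples. The genes whose groups lay apart on the higher side numbered 2 with median centring (8.41% of all tested genes), 7 with the mean over probe sets (14.3%) and 5 to 8 without single arrays (25.1% to 44%). Those on the lower side numbered 1 with quantile normalization (14.9% of all tested genes) and 6 to 23 without single arrays (24.9% to 34.2%), where fewer pairs of arrays are compared. The list's median ran from -0.37 to 0.14 without single arrays, less than the spread of 0.34 between replicates from its main value.

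Of 573 gene values under alternatives 516 kept their direction and side of the threshold, and 51, all of genes that did not pass in either setting, changed sign. With quantile normalization Psap turned to 0.0225, Ctsa to 0.0543, Ctsb to 0.0295, Ctsd to 0.0439, Ctsz to 0.13, Lamp1 to 0.0488, Tpp1 to 0.073, Lgmn to 0.0368, Lipa to 0.0118 and Grn to 0.0745. With median centring Ctsl turned to -0.11, Gusb to -0.16, Mcoln1 to -0.12, Asah1 to -0.18 and Cstb to -0.0858. With the mean over probe sets Ctsb turned to 0.31, Man2b1 to 0.62 and Gaa to 0.0013. Without the probe sets ending in _x_at and _s_at Gaa turned to 0.057 and Mcoln1 to -0.26. Without single arrays the log2 fold change ran from -0.56 to 0.59 for Asah1, -0.54 to 0.34 for Ctsa, -0.54 to 0.19 for Ctsd, -0.10 to 0.82 for Ctsk, -0.17 to 0.0564 for Gaa and -0.65 to 0.25 for Galns. It ran from -1.08 to 0.49 for Glb1, -0.47 to 0.15 for Grn, -0.41 to 0.49 for Gusb, -0.67 to 0.13 for Hexa, -0.41 to 0.0709 for Lamp1 and -0.44 to 0.0107 for Lamp2. It ran from -0.64 to 0.31 for Lgmn, -0.59 to 0.19 for Man2b1, -0.0544 to 0.21 for Mcoln1, -0.55 to 0.25 for Naglu and -0.40 to 0.25 for Tpp1. The cause of these changes was not tested.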
